A study of Mus musculus with 14 samples.

Results

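A group of 7 voltage-gated potassium channel genes linked to fast spiking, Kcnc1, Kcnc2, Kcnc4, Kcna1, Kcna2, Kcnab1 and Kcns3, were followed in hippocampal parvalbumin-expressing interneurons (PV neurons) after chronic social defeat stress (CSDS). They were picked by gene symbol, with earlier results of these data known. All 7 were found among the 39017 gene identifiers of the count table and passed the filter on low counts. The mice carried a Cre-dependent EGFP-tagged ribosomal protein L10a together with PV-Cre, so that the tag should label ribosomes of cells that use the parvalbumin promoter, and translating ribosome affinity purification (TRAP) pulled down the RNA on those ribosomes. TRAP libraries came from 4 non-defeated mice, 4 resilient mice and 3 susceptible mice, and 3 further libraries, called input, held total hippocampal RNA of non-defeated mice taken before the pull-down. Both hippocampi of a mouse were pooled into 1 TRAP sample. In the study's protocol, CSDS ran for 10 days, with 5 min of attack by a new CD-1 aggressor each day, and mice were tested for social interaction 24 h later. Defeated mice with a social interaction ratio below 1 were called susceptible and the others resilient, while non-defeated mice were housed in pairs across a divider without contact with aggressors. Libraries are named here by group and by the number in their label.

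Kv3 channels, encoded by the Kcnc genes, open only at strongly depolarized voltages and close quickly, which keeps action potentials narrow and lets a neuron fire at high rates. Kv1 channels, encoded by the Kcna genes, open near threshold, sit at the axon initial segment, along the axon and at terminals, and carry cytoplasmic beta subunits such as the product of Kcnab1. The product of Kcns3 forms no channel by itself but joins Kv2 subunits and changes their gating. PV neurons are the classic fast-spiking interneurons of the hippocampus and cortex, and strong Kcnc1 expression is a well known feature of theirs.

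The pore segments of 4 members are shown as an example of how far apart these members are in a conserved part of these genes. Each is a 75-base stretch of coding sequence from release M21 of the GENCODE annotation of mouse build GRCm38 (mm10), printed 5′ to 3′ on the coding strand. Capitals mark the 15 bases that encode the selectivity signature, the loop that lets potassium through. Each segment lies within 1 coding exon.
Kcnc2: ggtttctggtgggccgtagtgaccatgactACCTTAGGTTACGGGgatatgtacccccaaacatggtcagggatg
Kcna1: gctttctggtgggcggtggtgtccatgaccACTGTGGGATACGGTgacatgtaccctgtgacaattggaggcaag
Kcna2: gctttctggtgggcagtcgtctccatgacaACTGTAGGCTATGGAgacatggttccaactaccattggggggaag
Kcns3: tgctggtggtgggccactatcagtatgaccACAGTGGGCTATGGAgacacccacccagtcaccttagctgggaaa

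The segments lie at chr10:112456199-112456273 (+ strand) for Kcnc2, chr6:126642198-126642272 (-) for Kcna1, chr3:107105194-107105268 (+) for Kcna2 and chr12:11091545-11091619 (-) for Kcns3. Kcnab1 (chr3:65109384-65378223, +) encodes a beta subunit and has no pore. Over the 75 bases, Kcna1 differed from Kcna2 at 18 positions, from Kcnc2 at 22 and from Kcns3 at 30. Across whole transcripts, the longest run of identical bases was 29 between Kcnc1 and Kcnc2, 29 between Kcnc1 and Kcnc4, 21 between Kcnc2 and Kcnc4 and 20 between Kcna1 and Kcna2. All of these are shorter than the 150-base reads. Exons of Kcnab1 overlap an annotated antisense gene, A330015K06Rik, which is not in the count table. Whether counting used strand is not given in the sources used here, so reads of Kcnab1 and of that gene cannot be told apart.

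Library totals ran from 64110214 counts in an input library to 94726962 in non-defeated 6. The smallest count of any member in any library was 497, for Kcns3 in input. Levels are given as normalized CPM, the counts of a gene per 1000000 counts of its library, with library sizes scaled by the trimmed mean of M values (TMM). Pvalb rose from a mean of 25.4 CPM in input to 1464 CPM in TRAP of non-defeated mice. The interneuron markers Gad1, Gad2, Slc32a1 and Erbb4, which are not particular to PV neurons, rose as well. Summed with Pvalb, they were at 469 to 568 CPM in input and at 3340 to 3780 CPM in TRAP of these mice. Over all 11 TRAP libraries the sum was 2832 to 3909 CPM. The excitatory neuron, oligodendrocyte and microglia markers were all lower in TRAP, as were 4 of 5 astrocyte markers and all 4 hemoglobin genes. Of 5 markers of other interneurons, 2 were higher in TRAP, Sst (a mean of 62.5 CPM in input and 190 in TRAP) and Npy (26.6 and 184), and 3 were lower, while 2 of 6 endothelium markers and 1 of 7 thalamus markers were higher and none of either list was lower. The part of these other cells in the member values was not tested. Summed thalamus markers, which the hippocampus should largely lack, were highest in 5 libraries. They were at 718 CPM in resilient 7, 410 in non-defeated 9, 369 in input 14, 307 in non-defeated 11 and 151 in susceptible 10. The other 9 had 49.3 to 90.0 CPM, and susceptible 10 lay nearer to these than to the next higher library. The 9 were input 12 and 13, non-defeated 1 and 6, resilient 3, 5 and 8 and susceptible 2 and 4. Results given below without the 5 highest libraries rest on these few per group. Ramp3, 1 of the 7 markers, was at 19.1 CPM in non-defeated 1 and 6 but at 2.44 and 2.62 CPM in input 12 and 13. Summed hemoglobin transcripts were 885 to 1218 CPM in susceptible mice, 114 to 240 in non-defeated mice and 127 to 588 in resilient mice.

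The first comparison, TRAP of non-defeated mice against input, asked which of these transcripts were enriched on the ribosomes of PV neurons. Of the 7 genes, 5 were higher in TRAP (Kcnc1, Kcns3, Kcnc2, Kcna1 and Kcnab1), Kcnc4 was lower, and Kcna2 did not pass the test. A call is an adjusted p under 0.05 in edgeR's quasi-likelihood test, with Benjamini-Hochberg adjustment over the 21298 genes tested. In this comparison 55.0% of all genes tested were called, 27.4% as higher and 27.6% as lower. The median log2 fold change was 1.26 over the 7 genes and -0.04 over all genes tested. The comparison sets ribosome-bound RNA of 1 cell type against total RNA of the tissue, so cell type and ribosome binding cannot be told apart in it. In such bulk samples fewer cells of a type and less RNA per cell cannot be told apart either.

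**Figure D1:**
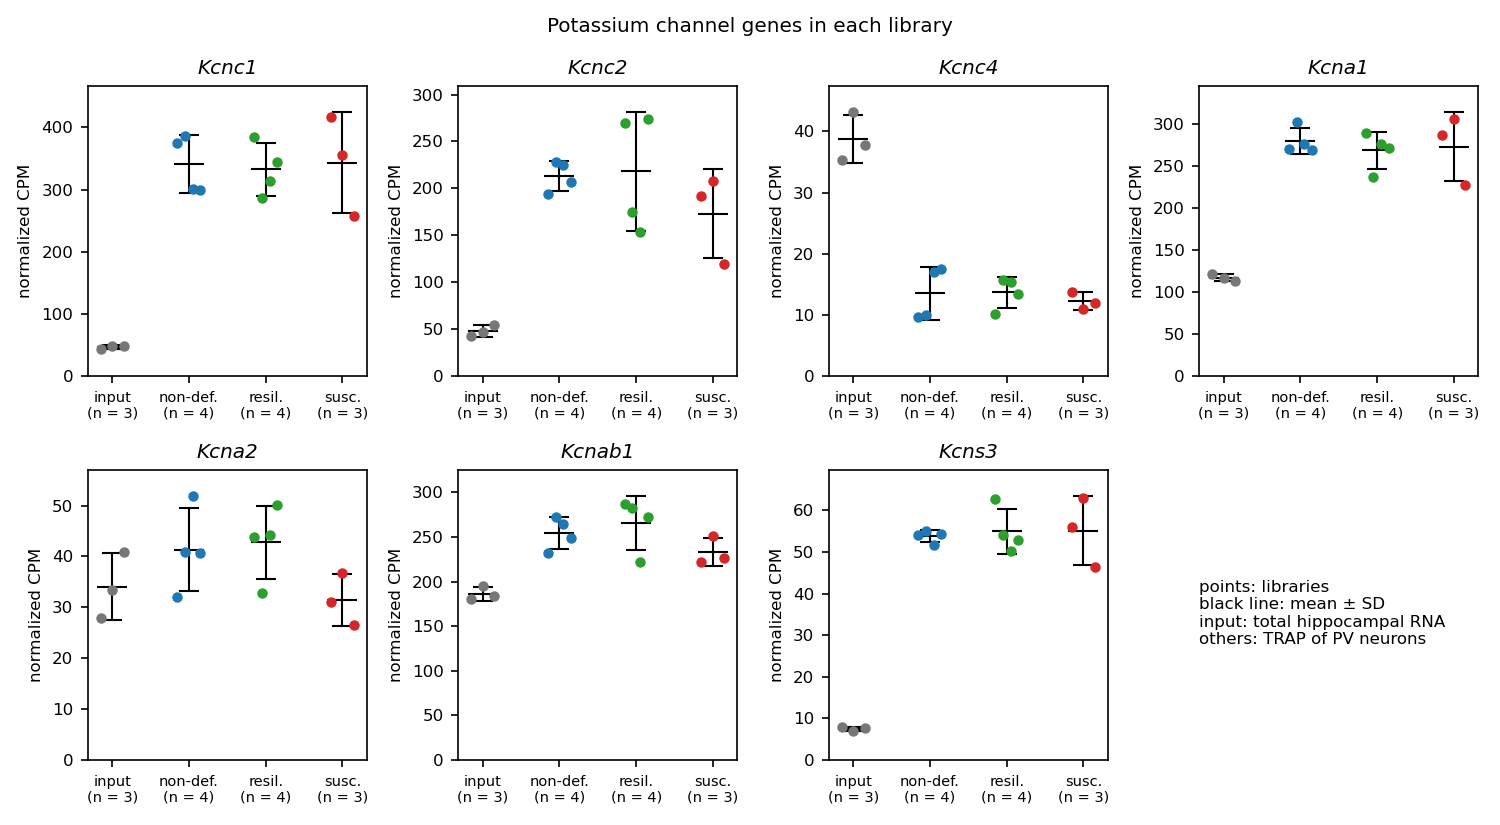
Normalized CPM (vertical axes, from 0) of the 7 genes in each library, by group (horizontal axes). Points are libraries and black lines the mean and SD. Kcnc1, Kcnc2, Kcna1, Kcnab1 and Kcns3 separate input from every TRAP library, Kcnc4 does so in the other direction, and the 3 TRAP groups overlap for every gene.

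Kcnc1, which encodes the Kv3 subunit typical of fast-spiking interneurons, had 43.1, 48.0 and 48.3 CPM in the 3 input libraries. In non-defeated mice it had 375, 386, 301 and 300 CPM. All 4 TRAP libraries were far above all input libraries. Its mean rose from 46.5 ± 2.94 (SD, n = 3) to 341 ± 46.5 CPM (n = 4), a 7.33-fold difference (log2 fold change 2.87, SE 0.17, edgeR adjusted p = 1.14e-08).

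Kcns3, the silent subunit, had the smallest p of the 7 and ranked 8 by p among all genes tested. It was at 7.83, 7.04 and 7.66 CPM in input and at 54.1, 55.1, 51.7 and 54.3 CPM in non-defeated TRAP. The 4 TRAP values lay within a few CPM of each other, with an SD of 1.44 around a mean of 53.8 CPM, the narrowest relative spread of any member in any group (coefficient of variation 2.68%). The log2 fold change was 2.84 (SE 0.12, edgeR adjusted p = 1.20e-09).

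Kcnc2, which encodes the second abundant Kv3 subunit of PV neurons, was at 42.5, 47.1 and 54.8 CPM in input. In non-defeated TRAP it was at 194, 228, 225 and 207 CPM, with no overlap between the groups. It rose by 2.15 on the log2 scale (SE 0.23, edgeR adjusted p = 2.14e-06). In input, Kcnc1 and Kcnc2 had similar CPM, whereas in TRAP Kcnc1 was the higher of the pair in every non-defeated library.

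Kcnc4, which encodes a Kv3 subunit that inactivates fast and is known from mossy fiber terminals of granule cells, moved the other way. It was at 35.3, 43.1 and 37.8 CPM in input and at 9.61, 10, 17.0 and 17.5 CPM in non-defeated TRAP. The groups did not overlap, and the 2 higher TRAP values belonged to non-defeated 9 and 11. These were the TRAP libraries of this group that were high in thalamus markers. They also had higher summed excitatory neuron markers (792 and 830 CPM) than non-defeated 1 and 6 (628 and 675 CPM). Their summed astrocyte markers (231 and 268 CPM against 164 and 165) and oligodendrocyte markers were higher as well. The log2 fold change was -1.52 (SE 0.21, edgeR adjusted p = 3.03e-05), and -1.99 without the 5 libraries high in thalamus markers (edgeR adjusted p = 6.36e-05). The part of thalamic, excitatory neuron or glial RNA in the Kcnc4 level was not tested.

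Kcna1, an axonal Kv1 subunit, was at 121, 116 and 113 CPM in input and at 270, 302, 276 and 269 CPM in non-defeated TRAP. The groups lay far apart, with a log2 fold change of 1.26 (SE 0.10, edgeR adjusted p = 1.70e-07). Kcna2, which encodes the subunit that most often joins Kcna1 in axonal channels, was at 27.9, 33.4 and 40.9 CPM in input and at 32.0, 40.9, 51.8 and 40.6 CPM in non-defeated TRAP. These ranges overlapped, and the log2 difference of 0.28 (95% interval -0.11 to 0.66) did not pass the test (edgeR adjusted p = 0.207).

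Kcnab1, whose beta subunit binds Kv1 channels and can make them inactivate, was at 180, 195 and 184 CPM in input and at 232, 272, 265 and 249 CPM in non-defeated TRAP. The groups did not overlap, but the difference was small, with a log2 fold change of 0.45 (SE 0.09, edgeR adjusted p = 0.000970). Scaling by library totals alone lowered it to 0.26 (edgeR adjusted p = 0.0278), since that scaling moved the median of all genes to -0.23. The other 5 calls kept their direction and stayed past the threshold under that scaling, with log2 fold changes of 2.69 for Kcnc1, 2.65 for Kcns3, 1.96 for Kcnc2, 1.08 for Kcna1 and -1.71 for Kcnc4. Between the groups, 6 of the 7 members did not overlap, as was the case for 62.0% of all genes tested.

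**Figure D2:**
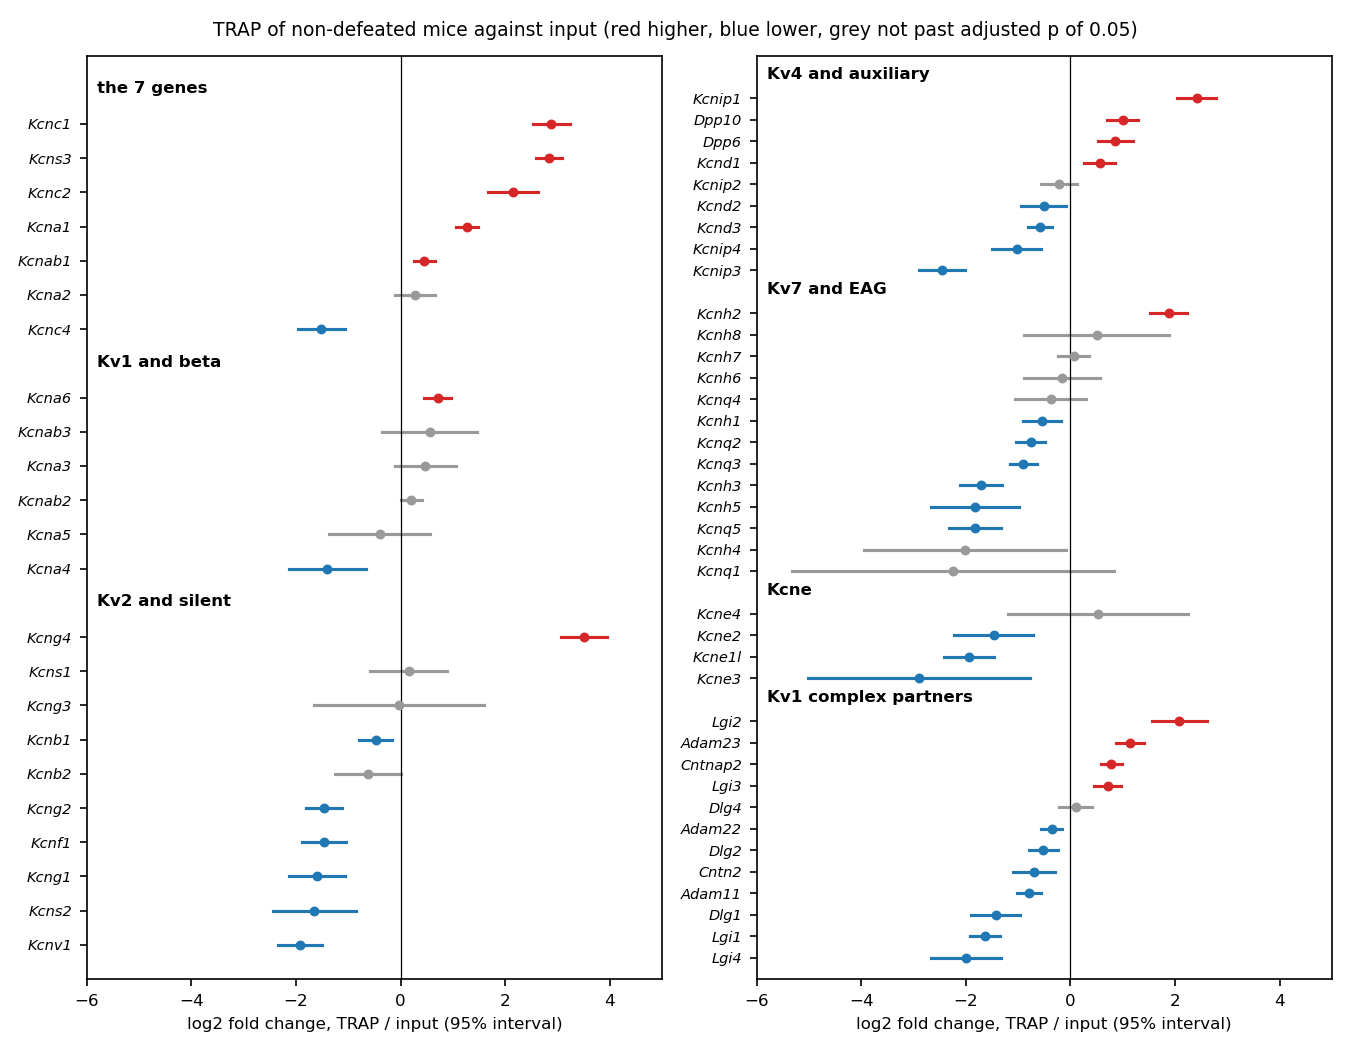
Log2 fold change (horizontal axis) of TRAP of non-defeated mice against input for the 7 genes and for the other listed potassium channel and partner genes that passed the filter. Points are edgeR estimates and lines 95% intervals, in red for higher, blue for lower and grey for an adjusted p above 0.05. Kcnc1 (2.87), Kcns3 (2.84) and Kcng4 (3.50) lie farthest to the right, and Kcnip3 (-2.46) is among the lowest of the blue points.

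Other potassium channel genes and partners of Kv1 channels were read from a list of 58, of which 54 passed the filter. In the same comparison 11 of the 54 were higher, 27 were lower and 16 did not pass, with a median log2 fold change of -0.52. Of the other Kv1 and beta subunit genes, 1 of 6 was higher, Kcna6 (0.71), and 1 was lower, Kcna4 (-1.41). Kcna6 shares exonic sequence with the antisense gene Gm26673, so its value is uncertain. Kcnab2 (0.20) and Kcna5 (-0.40) did not pass the test.

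Among 10 Kv2 and silent subunit genes, 1 was higher and 6 were lower. The higher gene was Kcng4, a silent subunit like Kcns3, at 5.64 to 7.92 CPM in input and 69.3 to 92.4 CPM in TRAP (log2 fold change 3.50, SE 0.20, edgeR adjusted p = 1.07e-08). Kcnv1 (-1.92) and Kcng2 (-1.46) were lower, and Kcns1, a close relative of Kcns3, was not called (0.15, and -0.04 when scaled by library totals alone). Of 9 Kv4 and auxiliary genes, which serve A-type currents, 4 were higher and 4 were lower. Kcnip1 (2.41) and Dpp10 (1.0) were among the higher, and Kcnip3 (-2.46) and Kcnd3 (-0.59) among the lower. These genes thus held auxiliary subunits on both sides.

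Of 13 Kv7 and EAG-type genes, 1 was higher, Kcnh2 (1.88), and 6 were lower, including Kcnq5 (-1.83) and Kcnh3 (-1.71). The values of both are uncertain, since exons of Kcnh3 overlap those of the opposite-strand gene Mcrs1, which had a mean of 8054 counts, and exons of Kcnq5 overlap those of the opposite-strand Gm26580. The same holds for Kcnd3 (Kcnd3os), Kcng2 (D330025C20Rik), Kcnab2 (Gm16334), Lgi1 (Gm42723) and Dlg2 (Gm45159 and Gm45131), whose exons overlap those of the genes in brackets. Of 4 Kcne accessory genes, none was higher by edgeR and 3 were lower, including Kcne1l (-1.93) and Kcne2 (-1.47), while Kcne4 (0.52) did not pass. Of 12 partners of Kv1 complexes, which anchor or cluster these channels, 4 were higher, including Lgi2 (2.08) and Adam23 (1.14), and 7 were lower, including Lgi1 (-1.63) and Adam11 (-0.79). Lgi2 and Lgi1, secreted relatives that bind the same kind of receptor, differed in direction.

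To compare levels between genes, CPM was divided by the summed exon length of each gene in units of 1000 bases (RPKM). In non-defeated TRAP the order of the level was Kcna1 (58.4 ± 3.23 RPKM, n = 4), Kcnc1 (36.0 ± 4.91), Kcnc2 (29.9 ± 2.26), Kcnab1 (29.6 ± 2.06), Kcns3 (17.0 ± 0.456), Kcnc4 (3.69 ± 1.17) and Kcna2 (3.47 ± 0.682). The ranges of Kcnc1 and Kcnc2, of Kcnc2 and Kcnab1, and of Kcnc4 and Kcna2 overlapped, so these neighbours were not separated by their spread. Within each of the 4 libraries, however, Kcnc1 was above Kcnc2 and Kcnc2 above Kcnab1, whereas Kcnc4 was above Kcna2 in 2 of 4. In input the order was Kcna1 (24.3 ± 0.859 RPKM, n = 3), Kcnab1 (21.7 ± 0.853), Kcnc4 (10.6 ± 1.08), Kcnc2 (6.74 ± 0.871), Kcnc1 (4.91 ± 0.310), Kcna2 (2.86 ± 0.547) and Kcns3 (2.37 ± 0.132), and of these neighbours Kcna2 and Kcns3 overlapped. With these lengths Kcnc4 stood above the other 2 Kv3 members in input and below both in TRAP. With the length of the transcript that has the longest coding sequence in place of all exons, the first places in TRAP became Kcnc1 (108 RPKM), Kcnab1 (78.3), Kcna1 (69.2) and Kcnc2 (42.2), and Kcns3, Kcnc4 and Kcna2 kept theirs. In input the same lengths put Kcnab1 (57.3 RPKM) above Kcna1 (28.8) and Kcnc1 (14.7) above Kcnc4 (10.6) and Kcnc2 (9.53). The order of the top 4 in TRAP and of the top 5 in input therefore depends on the gene length used.

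The proportions of the 3 Kcnc members, as shares of their own summed RPKM, changed accordingly. Kcnc4 held 47.6% ± 2.77 (SD, n = 3) in input and 5.37% ± 1.94 (n = 4) in non-defeated TRAP. Kcnc1 held 22.1% ± 0.473 and 51.6% ± 4.82, and Kcnc2 held 30.3% ± 2.63 and 43.0% ± 3.10. With the other gene lengths Kcnc4 went from 30.4% to 2.39% and Kcnc1 from 42.3% to 70.2%, while Kcnc2 had 27.4% in both. The direction for Kcnc1 and Kcnc4 was thus the same with both lengths, and that for Kcnc2 was not.

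In the Kv1 pool, the summed RPKM of Kcna1 to Kcna6, Kcna1 held 58.2% ± 2.29 in input and 73.0% ± 0.326 in non-defeated TRAP. Kcna2 held 6.85% ± 1.29 and 4.34% ± 0.856. Among the 3 beta subunit genes, Kcnab1 held 18.5% ± 0.657 of the summed RPKM in input and 20.8% ± 1.41 in TRAP, and Kcnab2 held most of it in both, with 73.2% ± 3.09 and 69.3% ± 2.38.

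**Figure D3:**
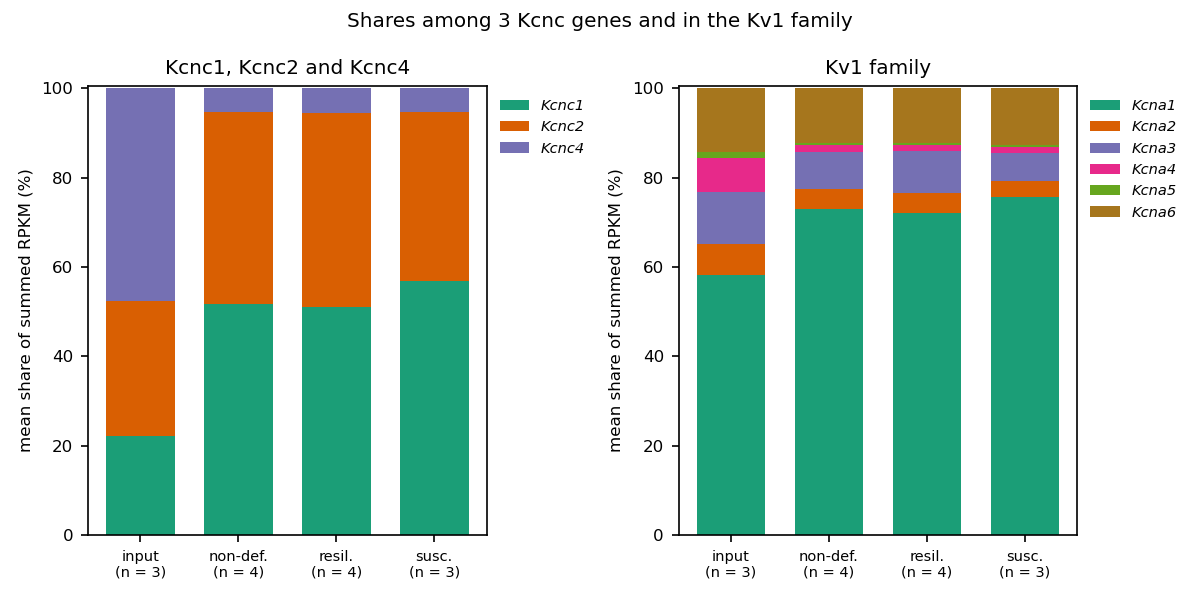
Mean share (vertical axis, %) of each gene in the summed RPKM of Kcnc1, Kcnc2 and Kcnc4 (left) and of the Kv1 family (right), by group (horizontal axis). Kcnc4 takes 47.6% of the left bar in input and between 5.37% and 5.61% in the 3 TRAP groups, and Kcna1 takes 58.2% of the Kv1 bar in input and between 72.0% and 75.7% in TRAP.

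The stress comparisons asked whether these transcripts differed between non-defeated, resilient and susceptible mice. None of the 7 was called by edgeR or DESeq2 in any of the 3 comparisons. Resilient against non-defeated mice called 0% of all genes tested, with 933 genes (4.38%) at an unadjusted p under 0.05 in edgeR and 0 calls with DESeq2. Susceptible against non-defeated mice called 0.0376% and susceptible against resilient mice 1.89%. These comparisons share groups and are not independent of each other.

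Between resilient and non-defeated mice the median log2 fold change of the 7 was 0.03, against 0.00 over all genes tested. The 7 values ran from -0.06 for Kcna1 (95% interval -0.25 to 0.14) to 0.06 for Kcnab1 (-0.12 to 0.25), and no member had an unadjusted p under 0.05. The widest interval was that of Kcnc4, -0.41 to 0.44, and the narrowest that of Kcnab1. Without the 5 libraries high in thalamus markers the values ran wider, from -0.18 for Kcnc1 to 0.41 for Kcnc4 (edgeR adjusted p = 0.599 and 0.463), with Kcna2 at 0.21 and Kcnc2 at 0.18. Kcnc1 was at 385, 287, 313 and 345 CPM in resilient mice, a mean of 332 ± 42.3, and its log2 difference from non-defeated mice was -0.04 (-0.33 to 0.26). Kcnc2 split the resilient mice, with 270 and 274 CPM in resilient 3 and 8 and 175 and 153 CPM in resilient 5 and 7. Its coefficient of variation was 29.0% there and 7.56% in non-defeated mice. Erbb4 was likewise at 54.4 and 57.2 CPM in resilient 3 and 8 and at 43.6 and 26.4 CPM in resilient 5 and 7. Slc32a1 and Gad1 were also higher in resilient 3 and 8 than in 5 and 7, whereas Pvalb and Gad2 did not split this way. The part of library composition in the Kcnc2 values was not tested. Kcna1 (289, 237, 276 and 271 CPM) and Kcns3 (62.8, 54.0, 50.2 and 52.8 CPM) overlapped the non-defeated values.

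Susceptible mice were lower in Kcna2 by the estimate, with 31.0, 36.8 and 26.5 CPM against 32.0, 40.9, 51.8 and 40.6 in non-defeated mice and 43.8, 32.9, 44.3 and 50.1 in resilient mice. The groups overlapped in both comparisons. The log2 difference was -0.39 against non-defeated mice (95% interval -0.78 to -0.01, edgeR adjusted p = 0.371) and -0.44 against resilient mice (-0.83 to -0.06, edgeR adjusted p = 0.181). Kcna2 was the 1 member with an unadjusted p under 0.05 in these 2 comparisons (0.0471 and 0.0276 by edgeR, 0.143 and 0.0857 by the 2-sided exact permutation test, whose smallest possible p is 0.0286). Over all genes tested, 13.3% and 20.9% had an unadjusted p under 0.05. Among libraries numbered 1 to 6 the log2 differences were -0.10 and -0.17, and among those numbered 7 to 11, where susceptible 10 was the only susceptible library, they were -0.79 and -0.83. Without the 5 libraries high in thalamus markers, which include susceptible 10, they were -0.10 and -0.31. Against non-defeated mice, this setting and the numbers 1 to 6 kept the same libraries, non-defeated 1 and 6 and susceptible 2 and 4. The value of -0.10 is therefore 1 comparison and not 2 separate checks. All TRAP libraries high in thalamus markers were numbered 7 to 11, so the 2 settings largely drop the same libraries.

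Susceptible 10 was the lowest of all 11 TRAP libraries for Kcnc1 (257 CPM), Kcnc2 (119), Kcna1 (227), Kcna2 (26.5) and Kcns3 (46.4). Its level of summed thalamus markers, 151 CPM, was the highest of the susceptible mice. Resilient 7 had 718 CPM of these markers. It was at 313 CPM for Kcnc1, 153 for Kcnc2, 276 for Kcna1, 44.3 for Kcna2 and 50.2 for Kcns3. For Kcnc2 and Kcns3 these were the next lowest values of the 11 TRAP libraries. Susceptible 10 also had the lowest sum of Pvalb, Gad1, Gad2, Slc32a1 and Erbb4 (2832 CPM) of the 11 TRAP libraries. Pvalb itself was not lowest there, at 1241 CPM against 1208 CPM in resilient 5. Summed astrocyte markers (339 CPM) and summed hemoglobin transcripts (1218 CPM) were the highest of the 11 in susceptible 10. The part of these in the member values was not tested. In the other susceptible mice, 2 and 4, the values were 417 and 356 CPM for Kcnc1, 192 and 208 for Kcnc2, 286 and 305 for Kcna1 and 56.0 and 62.9 for Kcns3. Susceptible 2 thus had the highest Kcnc1 and susceptible 4 the highest Kcna1 and Kcns3 of any TRAP library.

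**Figure D4:**
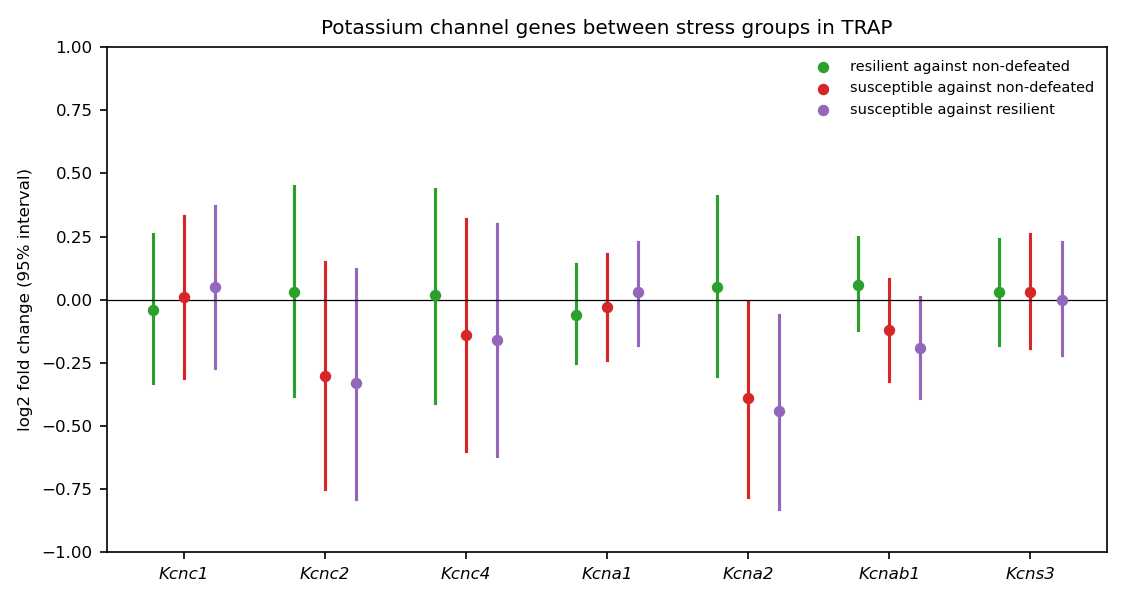
Log2 fold change (vertical axis) of the 7 genes in the 3 comparisons between stress groups in TRAP. Points are edgeR estimates and lines 95% intervals, and colors mark the comparison. Each interval includes 0 except the 2 for Kcna2 in susceptible mice, which run from -0.78 to -0.01 and from -0.83 to -0.06 and whose adjusted p are 0.371 and 0.181.

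For the other members the susceptible mice spanned both signs. Kcnc2 had log2 differences of -0.30 against non-defeated mice (95% interval -0.75 to 0.15) and -0.33 against resilient mice (-0.79 to 0.12). For Kcnc2 these were -0.07 and -0.12 among libraries numbered 1 to 6. They were -0.86 and -0.78 among those numbered 7 to 11, where susceptible 10 stood alone. Without the 5 libraries high in thalamus markers they were -0.08 and -0.26. The -0.07 and the -0.08 come from the same libraries, so they are not separate checks. Kcnab1, at 222, 251 and 227 CPM in susceptible mice and 287, 282, 222 and 272 in resilient mice, differed by -0.12 (-0.32 to 0.08) and -0.19 (-0.39 to 0.01). Kcnc1 differed by 0.01 (-0.31 to 0.33) and 0.05 (-0.27 to 0.37; 0.20 without those 5 libraries), Kcnc4 by -0.14 (-0.60 to 0.32) and -0.16 (-0.62 to 0.30), Kcna1 by -0.03 (-0.24 to 0.18) and 0.03 (-0.18 to 0.23) and Kcns3 by 0.03 (-0.19 to 0.26) and 0.00 (-0.22 to 0.23). The median of the 7 was -0.12 and -0.16, against 0.01 and 0.00 over all genes tested. The intervals show the precision that 3 and 4 mice gave: for Kcnc2 and Kcnc4 a log2 value of -0.60 in susceptible mice lay inside or at the edge of them, whereas for Kcna1 and Kcns3 they ended within 0.26 of 0.

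The ratios of 2 pairs of subunits within a library were compared because they do not depend on scaling. The ratio of Kcnc1 to Kcnc2 in CPM was 0.971 ± 0.0770 (SD, n = 3) in input, 1.60 ± 0.267 (n = 4) in non-defeated mice, 1.59 ± 0.336 (n = 4) in resilient mice and 2.01 ± 0.260 (n = 3) in susceptible mice. The ratio of Kcna1 to Kcna2 was 3.51 ± 0.791, 6.95 ± 1.32, 6.36 ± 0.759 and 8.70 ± 0.483 in the same order. For both ratios every non-defeated TRAP library was above every input library, with log2 differences of 0.71 and 0.99, each at the smallest p that the exact permutation test can give, 0.0286 (2-sided, adjusted p = 0.0762 over the 8 tests of the 2 ratios). The Kcna1 to Kcna2 ratio was 8.29 to 9.23 in susceptible mice and 5.4 to 7.22 in resilient mice, without overlap, a log2 difference of 0.46 with the same exact permutation p of 0.0286 and adjusted p of 0.0762. Against non-defeated mice, which spanned 5.32 to 8.45, the difference was 0.34 and the groups overlapped (exact permutation p = 0.0857, adjusted p = 0.152). None of the 8 tests passed an adjusted p of 0.05, and with 3 against 4 libraries no single test could go below 0.0286.

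**Figure D5:**
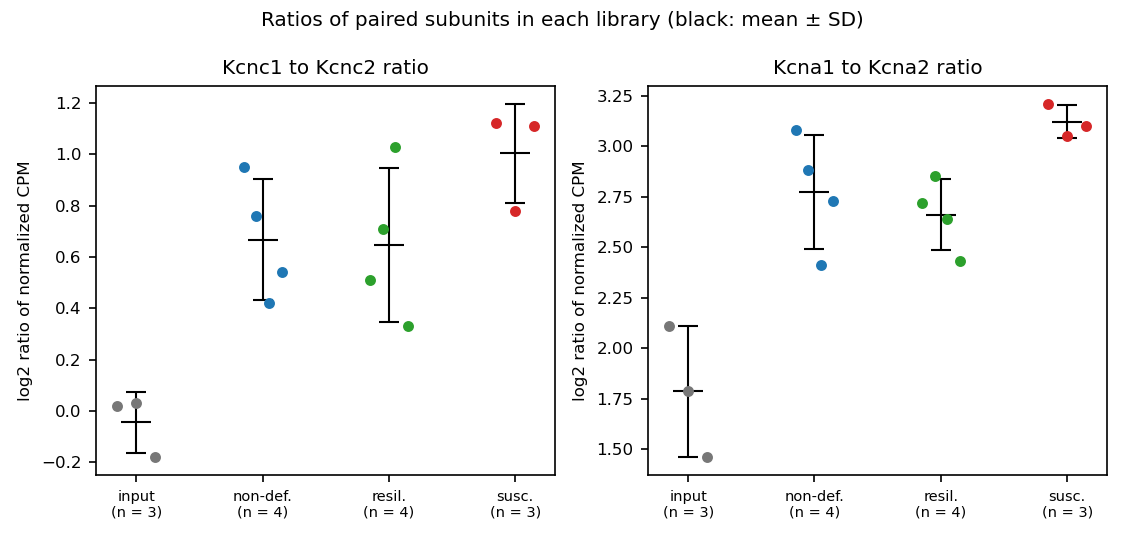
Log2 ratio of normalized CPM (vertical axes) of Kcnc1 to Kcnc2 (left) and Kcna1 to Kcna2 (right) in each library, by group (horizontal axes). Points are libraries and black lines the mean and SD. TRAP libraries lie above input in both panels, and the 3 susceptible libraries lie above the 4 resilient libraries in the right panel.

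Of the 54 other listed genes, 1 was called in a stress comparison. Kcnq3, a subunit of the M-type channels that limit repetitive firing, was at 22.4, 16.3 and 19.1 CPM in susceptible mice and at 10.1, 10.9, 13.1 and 11.5 CPM in resilient mice, without overlap, as was the case for 15.1% of all genes tested. The log2 difference was 0.76 (SE 0.12, edgeR adjusted p = 0.0225), with DESeq2 at an adjusted p of 0.000728. The call was lost without resilient 3 (edgeR adjusted p = 0.0505), resilient 8 (0.0702) or susceptible 2 (0.109), and when edgeR was fitted to the 11 TRAP libraries (0.0834) or to the 2 groups alone (0.136). Kcnq3 also had the smallest p of the listed genes between resilient and non-defeated mice (13.5, 16.3, 14 and 13.5 CPM in the latter), at -0.33 (edgeR adjusted p = 1.0). Hemoglobin transcripts were higher in the same susceptible libraries, and their part in the Kcnq3 difference was not tested. Between susceptible and non-defeated mice the smallest p was that of Dlg2, a scaffold of Kv1 channels, with a log2 difference of -0.49 (edgeR adjusted p = 0.180). The median of the 54 genes was 0.01, -0.10 and -0.10 in the 3 comparisons.

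Genes whose level was among those that followed a member most closely over the 11 TRAP libraries were found by Pearson's r of log2 CPM among 20865 genes, as a description only, since all points share the libraries and their composition. For Kcnc1 they were R3hdm4 (r = 0.96) and Pcsk1n (0.95), and Kcnc2 was followed by Atcayos (0.95). Kcnc4 was followed by Ankle2 (0.95) and Stat6 (0.94), Kcna1 by Ndufs8 (0.97) and Cdk10 (0.94), and Kcna2 by Trim44 (0.97) and Trpm2 (0.96). Kcnab1 was followed by Prss23os (0.94) and Gm5224 (0.92), and Kcns3 by Laptm4b (0.96) and Slc35f3 (0.96). No gene was named for more than 1 member. Of these 13, Laptm4b had the largest difference in TRAP against input, at 2.41 on the log2 scale, and 6 had a value below 0 there, from -0.09 for Atcayos to -1.0 for Trim44.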

How the data were processed

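The authors deposited raw counts of reads per Ensembl gene for 14 libraries, which are not normalized. Per the study's methods, cDNA was made from purified RNA, 150-base single reads were cleaned by fastp, and STAR aligned them to mm10 in a version given as 2.7.1a there and 2.5.3a in the submitters' processing notes. The notes also name HTSeq. The annotation release and the strand setting are not given in the sources used here. The labels describe the molecule type of input libraries as for TRAP, whereas the design text calls them total RNA before TRAP.

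The members and lists were chosen with earlier results of these data known. Genes were named from GENCODE M21 (37693 of 39017 identifiers; unnamed rows held 0.824% of counts and stayed in the fits). Counts of all 14 libraries were fitted together in edgeR 4.0.16 (R 4.3.3) with TMM scaling and its default filter on low counts, which left 21298 genes. The quasi-likelihood test was 2-sided with Benjamini-Hochberg adjustment over these genes. DESeq2 1.42.0 on 2 groups, the study's own kind of test, was an alternative. Exact permutation tests compared log2 CPM (prior count 2) or log2 ratios of normalized CPM, with nothing added, of single libraries. Other genes were named by a rule: the 2 with the smallest p per direction and list against input, any called in a stress comparison, or otherwise the 1 with the smallest p. The alternatives without libraries high in thalamus markers and with other gene lengths were added after the data were seen. Fits were run on simulated counts with known changes put into susceptible libraries, as a check of the code. That check does not show which differences these groups could detect. Each TRAP sample was 1 mouse. Whether input libraries came from the same mice is not stated. Results on some items are not reported here, which leaves 1 like gene for Kcnc2 and pore segments for 4 members.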

Additional observations from a re-analysis of the deposited data

How the results depend on the processing

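Under every alternative run, 6 members were called in TRAP of non-defeated mice against input and 0 in each stress comparison. The alternatives were other size factors, library totals alone, other filters, DESeq2, and edgeR on the 2 groups or the TRAP libraries alone. Further ones took sample number 1 to 6 or 7 to 11 as a covariate, or left out 1 library at a time. The last left out the 5 libraries high in thalamus markers. Over all genes tested the stress counts depended more on the setting, from 0 with the TRAP libraries alone to 113 with DESeq2 (8 as reported) in susceptible against non-defeated mice, and from 0 with the 2 groups alone to 1004 with DESeq2 (403 as reported) in susceptible against resilient mice. With 1 library left out, they ran from 0 to 6 (6 without non-defeated 6) in the former and from 6 (without resilient 8) to 1058 (without susceptible 10) in the latter, where they were also 7 without susceptible 2, 12 without resilient 7, 26 without resilient 3, 73 without susceptible 4 and 196 without resilient 5. All values of the 7 members against input kept their direction. In the stress comparisons, small differences changed sign. With sample number 1 to 6 or 7 to 11 as a covariate, susceptible mice differed from non-defeated mice by -0.05 for Kcnc1 and -0.01 for Kcns3. Against resilient mice these log2 differences were -0.02 and -0.03. Kcns3 against resilient mice was also at -0.00 without a filter and with the 2 groups alone. Without the 5 libraries high in thalamus markers, Kcnc4 was at 0.33 and Kcna1 at 0.05 in susceptible against non-defeated mice. Kcns1 against input changed sign with library totals alone (-0.04) and without those 5 libraries (-0.52), and Kcnab2 passed the test with other size factors (0.22, adjusted p = 0.0447), with DESeq2 (0.23, adjusted p = 0.0321) and without non-defeated 1 (0.27, adjusted p = 0.0147). The cause was not tested.

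With 1 library left out at a time, these log2 differences crossed 0. In resilient against non-defeated mice they ran from -0.11 to 0.03 for Kcnc1, -0.10 to 0.17 for Kcnc2, -0.12 to 0.16 for Kcnc4, -0.05 to 0.18 for Kcna2, -0.04 to 0.07 for Kcns3 and -0.15 to 0.09 for the ratio of Kcnc1 to Kcnc2. In susceptible against non-defeated mice they ran from -0.15 to 0.18 for Kcnc1, -0.27 to 0.01 for Kcnc4, -0.12 to 0.08 for Kcna1 and -0.07 to 0.14 for Kcns3. In susceptible against resilient mice they ran from -0.12 to 0.22 for Kcnc1, -0.06 to 0.14 for Kcna1 and -0.10 to 0.11 for Kcns3. Kcns1 against input ran from -0.02 to 0.42. The fall of Kcnc4 against input ran from -1.66 to -1.39. No paired analysis was possible, since every library has its own number and whether input came from the same mice is not stated. Every member had at least 497 counts in each library, so no member was at the limit of detection.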
